A study of Mus musculus with 2 samples.

Results

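The Hox genes of the 4 mouse clusters were examined in ATAC-seq data of erythroblasts, nucleated cells that mature into red blood cells. ATAC-seq maps open chromatin with a transposase that inserts sequencing adapters into accessible DNA. Members were the protein-coding genes of the GENCODE M21 annotation (mm10) named Hoxa, Hoxb, Hoxc or Hoxd followed by a number only, which gave 39 of 21,938 protein-coding genes. The Hoxa cluster held 11 genes, Hoxb 10, Hoxc 9 and Hoxd 9. The series has 1 group: primary erythroblasts of male C57BL/6J mice, adult and 5 to 6 weeks old, with no allele or treatment named in the labels. It has 2 biological replicates of 50,000 cells each. Both carry the same donor identifier, so how far they are independent is not given, and no contrast between conditions could be made.

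Hox proteins are transcription factors with a homeodomain that set the identity of structures along the head-to-tail axis and in the limbs. Genes are numbered by paralog group, and their order along a cluster follows the order in which they act along the body. In blood, genes of the Hoxa and Hoxb clusters are known from stem and progenitor cells, where they act with Meis1 and Pbx proteins. Polycomb complexes keep Hox genes silent, MLL proteins keep them active, and CTCF with cohesin divides the clusters into domains.

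Each replicate had a list of intervals passing a threshold on the irreproducible discovery rate, a measure of how repeatable a ranked signal is (the thresholded list), and a longer list labelled pseudoreplicated (the less strict list). The thresholded lists held 17,777 and 18,837 intervals in replicates 1 and 2, and the less strict lists 31,830 and 33,552. Fold enrichment and −log10 p are the values of the authors' peak caller for the summit of an interval. They describe peaks within their own list, since no scaling between lists is given. The files hold no read counts, so depth is unknown. A promoter was called open when an interval lay within 1 kb of any annotated start site. By that call in both thresholded lists, 11 of 12 erythroblast markers were open, against 41.4% of all protein-coding genes. Alas2, the erythroid enzyme that starts heme synthesis, was the exception and had less strict intervals in both replicates. Among markers of other cells, 0 of 4 were open for endothelium, 0 of 8 for granulocytes with monocytes, 0 of 6 for the B lineage and 0 of 10 for stem cells with progenitors. In stroma 1 of 9 was open (Col1a1), and among T with NK cell markers 1 of 6 (Lck). As at Alas2, less strict intervals lay in both replicates at Myb, a stem and progenitor marker, with enrichments of 3.65 and 3.29. The same was true of Ebf1, a B lineage marker, with 5.16 and 5.27. Kit, Hlf and Pdgfra had such an interval in replicate 2 only.

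None of the 39 Hox promoters was open in the thresholded list of either replicate. Among all protein-coding genes, 42.2% were open in replicate 1, 42.8% in replicate 2 and 41.4% in both. The count was 0 of 11 Hoxa, 0 of 10 Hoxb, 0 of 9 Hoxc and 0 of 9 Hoxd genes, and 0 for each of the 13 paralog numbers, so neither cluster nor paralog number separated the genes. In the less strict lists, Hoxa7 was open in both replicates and Hoxa4 in replicate 2 only. This made 1 of 39 genes in replicate 1, 2 of 39 in replicate 2 and 1 of 39 in both, against 47.8%, 48.3% and 46.6% of all protein-coding genes. Genes of a cluster are neighbours and can share an interval, so they are not independent of each other. No test was made, since there is 1 group and the files are lists of intervals.

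The emptiness extended well beyond the promoters. Each window, from the outermost Hox gene ends plus 50 kb on either side, held 0 thresholded intervals in both replicates. The windows were chr6:52105590-52310880 for Hoxa (205 kb), chr11:96144316-96418256 for Hoxb (274 kb), chr15:102871103-103086852 for Hoxc (216 kb) and chr2:74618310-74815142 for Hoxd (197 kb), in mm10. The genome held 6.71 thresholded intervals per Mb in replicate 1 and 7.11 in replicate 2. The less strict lists held 3 intervals in the 4 windows in replicate 1 and 4 in replicate 2, or 3.36 and 4.49 per Mb, where the genome held 12.02 and 12.67 per Mb. In both replicates the Hoxd window, which covers the genes that pattern the limb tip together with their neighbour Evx2, had none of these. For all 39 Hox genes, neither thresholded list had an interval within 50 kb of the 5′ end, while the same was true of 35.8% of all protein-coding genes. With the whole gene body plus 50 kb on either side, it was again 39 of 39 against 31.6%. Within 100 kb it was 36 of 39 against 27.4%, the exceptions being Hoxd1, Hoxd12 and Hoxd13 at the ends of the Hoxd cluster.

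**Figure D1:**
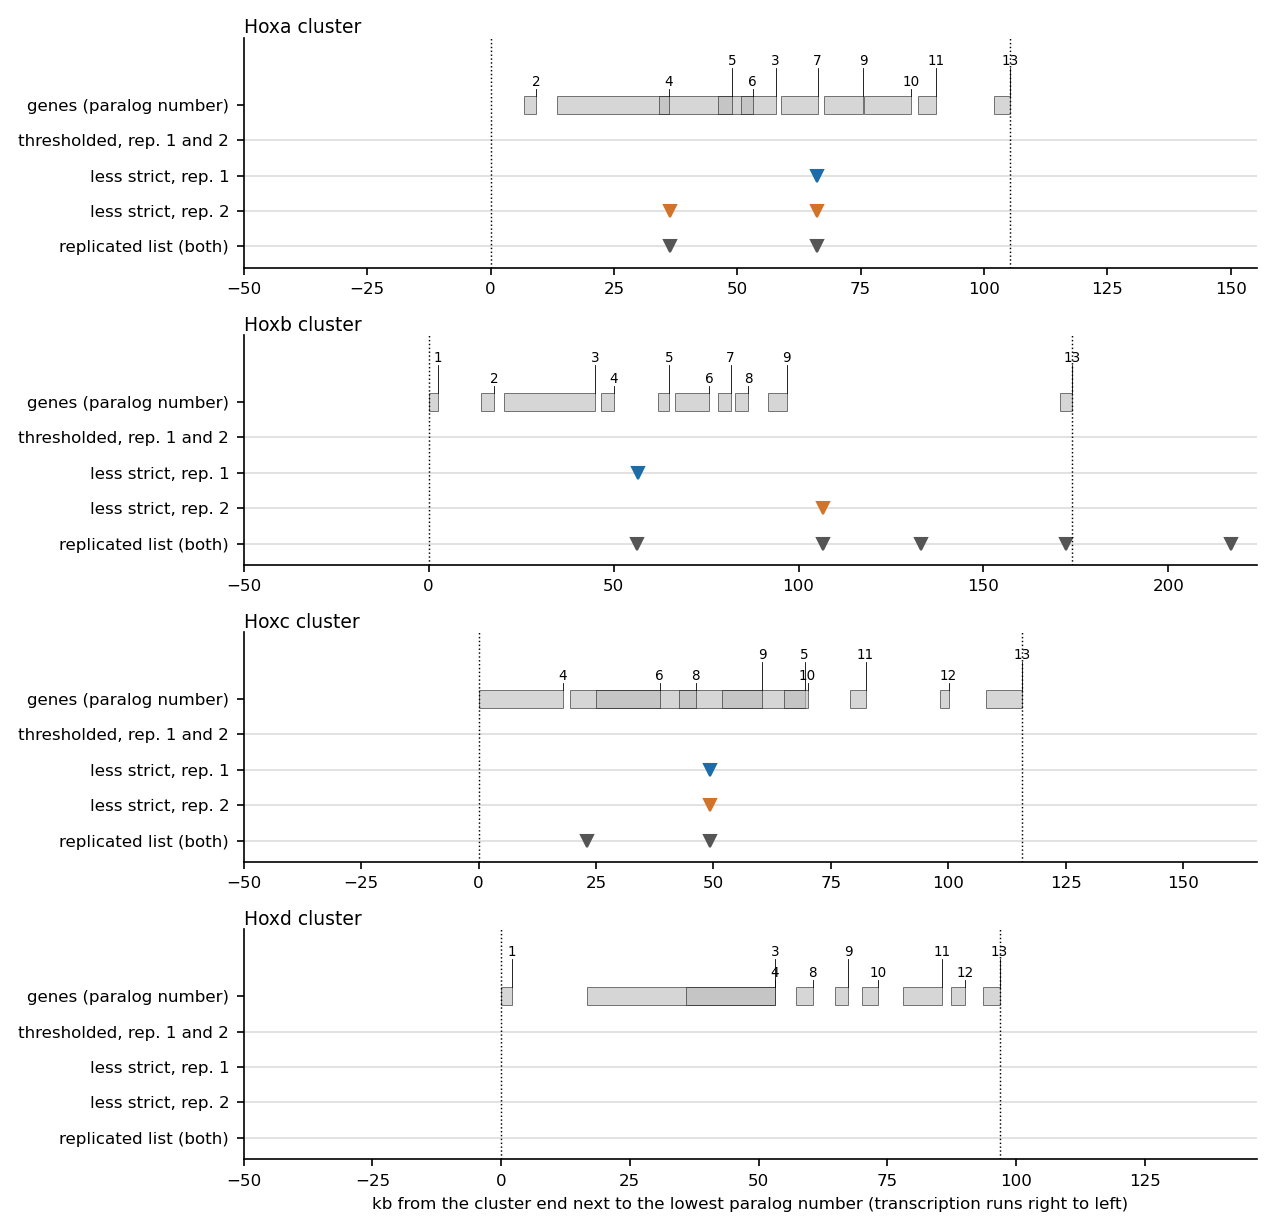
Hox genes and intervals in the 4 cluster windows, in kb from the cluster end next to the lowest paralog number. Grey boxes are genes with their paralog number at the 5′ end (1 Hoxa gene is not drawn), dotted lines are the outermost Hox gene ends, and triangles mark intervals of the lists named at the left; the row of thresholded lists is empty in every cluster, and the Hoxd window is empty in all rows.

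The distance from a Hox 5′ end to the nearest thresholded interval had a median of 195 kb in replicate 1 and 189 kb in replicate 2, where that of all protein-coding genes was 14.3 and 12.96 kb. The Hox values ran from 88.8 to 289 kb in replicate 1 and from 62.7 to 272 kb in replicate 2. Distance changed along each cluster, and it fell with paralog number in Hoxb but rose with it in Hoxa, except at Hoxa3, whose annotated 5′ end lies between those of Hoxa6 and Hoxa7 (200.2 kb in both replicates). Hoxb1, an early hindbrain gene at one end of the Hoxb cluster, was farthest at 289 and 272 kb, and Hoxb13, at the other end, lay 118 and 101 kb away. In the Hoxa cluster the distance rose from Hoxa2 at 152 kb in both replicates to Hoxa13, a gene of the limb tip and urogenital tract, at 248 kb in both. Hoxc genes lay between 158 and 211 kb in replicate 1 and between 146 and 211 kb in replicate 2. Hoxd genes were the closest as a cluster, with medians of 118 and 112 kb. Hoxd13 lay 88.8 kb away in both replicates, and Hoxd1 was the gene whose replicates differed most, at 183 kb and 62.7 kb.

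By paralog number, the 4 genes of group 13 lay between 88.8 and 248 kb, taking the nearer replicate of each gene, and the 3 genes of group 3 between 114 and 230 kb. The 4 genes of group 9, which includes Hoxa9, a gene of blood progenitors and of leukemia, lay between 118 and 218 kb, and the 4 genes of group 4, which includes Hoxb4, known for expanding blood stem cells, between 114 and 225 kb. The nearest genes of groups 3 and 4 were Hoxd3 and Hoxd4, whose annotated 5′ ends nearly coincide, so these are not separate distances. Against the less strict lists the Hox median fell to 31.2 and 33.1 kb, beside 4.97 and 4.40 kb for all genes. The Hoxd median was 112 kb in both replicates, against 118 and 112 kb by the thresholded lists, while the Hoxa median was 18.9 and 12.8 kb.

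The Hox promoters were rich in CpG dinucleotides, a feature of promoters that are usually open. The observed over the expected number of CpG, in 1001 bp around the 5′ end, had a median of 0.678 over the Hox genes and 0.552 over all protein-coding genes. It ran from 0.181 at Hoxb2 to 0.996 at Hoxa5. A ratio of at least 0.6 was found for 25 of 39 Hox genes: 9 of 11 Hoxa, 4 of 10 Hoxb, 5 of 9 Hoxc and 7 of 9 Hoxd genes. It was taken at the outermost annotated 5′ end, which can lie far from other start sites of a long gene model. Hoxd3 (chr2:74711927) and Hoxd4 (chr2:74711929) nearly share that end, so their ratios, 0.721 and 0.718, describe nearly the same sequence. Cluster medians were 0.689 for Hoxa, 0.472 for Hoxb, 0.651 for Hoxc and 0.721 for Hoxd, so the cluster with no interval in any list also had the highest median. Among the 10,083 protein-coding genes with this ratio, 69.4% were open in both thresholded lists and 75.4% in both less strict lists. For the 25 Hox genes those counts were 0 and 1, the latter Hoxa7. Of genes with the ratio, 27.9% had no thresholded interval at the promoter in either replicate and 22.2% no less strict one, beside 25 of 25 and 23 of 25 Hox genes.

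**Figure D2:**
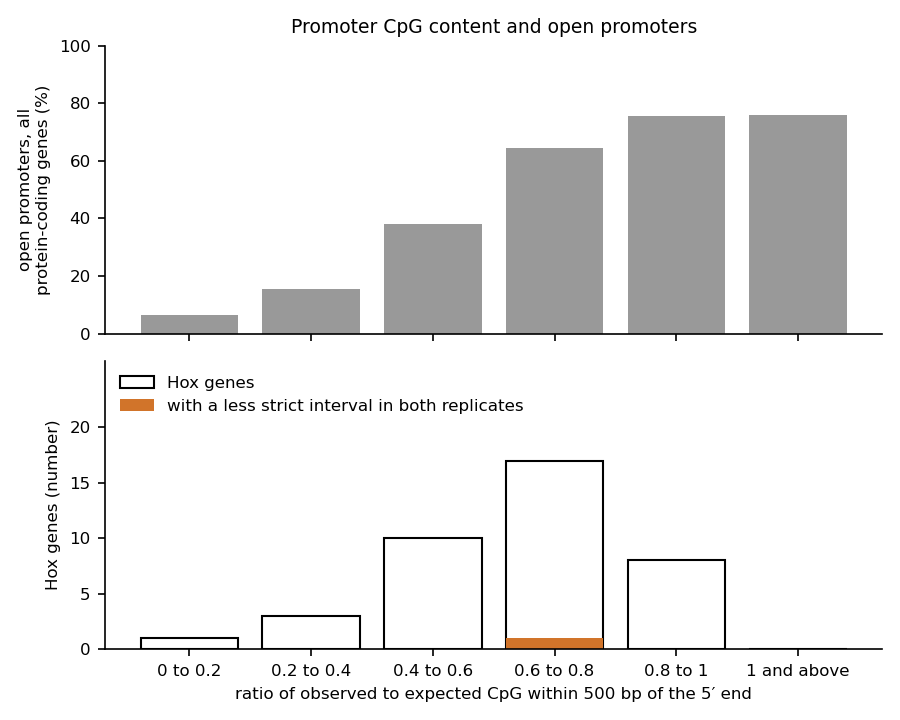
Upper panel, share of all protein-coding genes with an open promoter in both thresholded lists, by the ratio of observed to expected CpG; lower panel, number of Hox genes in the same bins, with those that had a less strict interval in both replicates filled. The share of open promoters rises from 6.39% to 75.7% across the bins, 25 of 39 Hox genes lie in the bins from 0.6 upward, and 1 Hox gene, Hoxa7, is filled.

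The strongest of the intervals in the windows lay at the start of Hoxa7, a gene of the middle of the cluster that patterns the trunk. In replicate 1 it was chr6:52221584-52221959 (376 bp), with an enrichment of 5.19 and a −log10 p of 10.8. In replicate 2 it was chr6:52221539-52221971 (433 bp), with 6.55 and 14.3. The mean enrichment was 5.87 ± 0.958 (SD, n = 2), and the summits lay 16 bp apart. The summit of the lists made from both replicates was 27 bp into the gene, in a UTR exon. Its enrichment was higher than that of 43.8% of the less strict intervals in replicate 1 and 60.9% in replicate 2, so by enrichment it was middling there. Its −log10 p was below the medians of these lists, 19.6 and 19.8. Whether the site was weakly open in all cells or open in some cells cannot be told apart in such data. The whole less strict lists had median enrichments of 5.62 and 5.60, and the thresholded lists 7.83 and 7.73.

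The Hoxa7 interval missed both thresholded lists. In the lists ranked by irreproducible discovery rate its score was 444 in replicate 1 and 355 in replicate 2, where the lowest score in either thresholded list was 540. Few intervals of its significance were thresholded in replicate 1: of 2329 less strict intervals with a −log10 p within 1 of its own, 43 (1.85%) were also thresholded. In replicate 2 this was 556 of 1826 (30.4%), while over the whole lists it was 55.6% and 55.9%. The thresholded list made from both replicates did hold it, with an enrichment of 7.10 and a −log10 p of 26.1, and it was the single interval of that list in the 4 windows.

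The second site found in both less strict lists lay in the Hoxc cluster, 3008 bp upstream of Hoxc8 and within an intron of the long gene model of Hoxc5. Hoxc8 acts in the patterning of the thorax. The interval was chr15:102987497-102987706 in replicate 1, with an enrichment of 4.71 and a −log10 p of 8.23, and chr15:102987502-102987713 in replicate 2, with 4.84 and 8.77. The mean enrichment was 4.78 ± 0.0886 (SD, n = 2), and the summits lay 20 bp apart. These replicate values were closer to each other than those of the Hoxa7 site. Of the lists made from both replicates it was in those labelled conservative, replicated and pseudoreplicated, with 5.42 and 15.4, and was missing from the thresholded one.

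The other sites were found in 1 replicate or only after both were combined. Distances from genes, here and for the Hoxc8 site, are from the summit in lists made from both replicates. Upstream of Hoxa4, 206 bp from its start, an interval of replicate 2 (chr6:52191851-52192199) had an enrichment of 4.84 and a −log10 p of 8.77, and replicate 1 had none. In the Hoxb cluster, replicate 1 alone had an interval 6545 bp upstream of Hoxb4 with values of 3.53 and 5.08. Replicate 2 alone had an interval at an annotated start site inside Gm53, a long noncoding RNA gene upstream of Hoxb9, with 3.13 and 4.19. Both Hoxb intervals ranked low in their lists, above 15.9% and 9.49% of intervals by enrichment. The list labelled replicated, made from both libraries, held 9 intervals in the 4 windows, or 10.1 per Mb against 16.3 in the genome. By cluster, the Hoxb window had 5 of these, or 18.3 per Mb, above the genome, the Hoxa and Hoxc windows had 2 each, or 9.74 and 9.27 per Mb, and the Hoxd window had 0. It comprised the 5 sites above and another 4: 132 bp upstream of a start site of Hoxc5 (enrichment 3.602), in a coding exon of Hoxb13 (3.48), between Hoxb13 and Hoxb9 at 36343 bp upstream of Hoxb9 (5.42), and in an intron of Ttll6 in the Hoxb flank (2.97). By that list 3 Hox promoters were open, those of Hoxa4, Hoxa7 and Hoxc5. The Hoxd window held 0 intervals in every list used.

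Sharing between replicates was 2 of 3 less strict intervals in replicate 1 (66.7%, 95% Wilson interval 20.8% to 93.9%) and 2 of 4 in replicate 2 (50%, 15% to 85%). Both intervals are wide, cover counting error only, and include the shares of the whole less strict lists, 86.3% and 82.1%. A difference was therefore not detectable with so few sites.

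**Figure D3:**
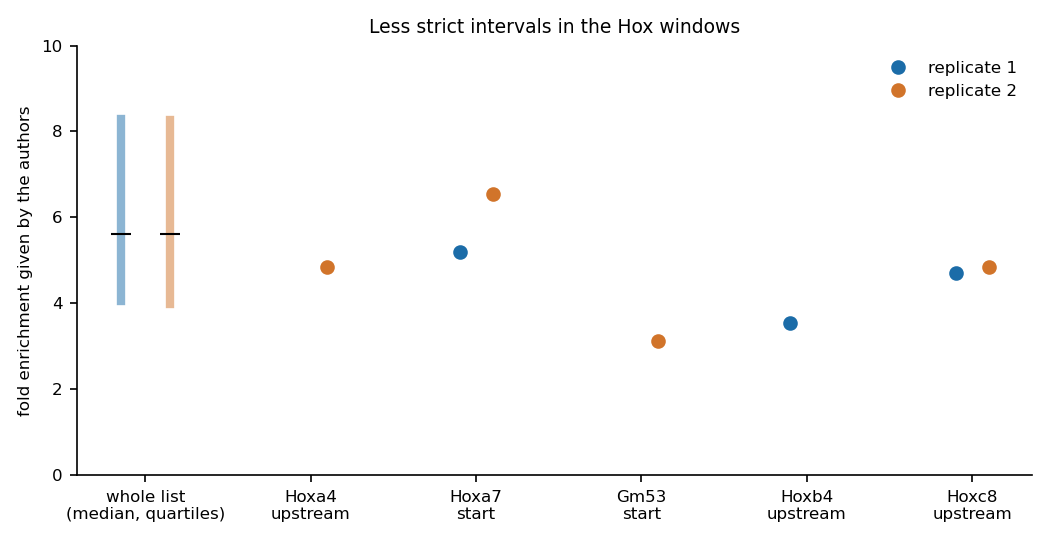
Fold enrichment given by the authors for the less strict intervals in the Hox windows, 1 point per replicate, beside the median (line) and quartiles (bar) of each whole less strict list. Only the Hoxa7 and Hoxc8 sites have a point from both replicates, and the Hoxa7 point of replicate 2, at 6.55, is the one above the list median.

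The sequences of these sites follow because the few intervals in the windows differ in base content. They are from the RefSeq sequence of GRCm38.p6 (mm10), 5′ to 3′ on the strand of the genes, which is minus for Hoxa and plus for Hoxc. Capitals mark matches, on either strand, to any of 9 motifs: CTCF (its core, CC then 3 free bases, AG, 2 free bases and GGC), GATA (A or T, then GATA, then A or G), E-box (CAGNTG), KLF (CCNCNCCC), ETS (CCGGAA), HOX (TAATNA), MEIS (TGACAG), RUNX (TGTGGT) and NFE2 (TGANTCA). The first 2 are the 151 bp around the summit, at chr6:52191884-52192034 and chr15:102987524-102987674. The next is a 30-base stretch after the start of Hoxa7, chr6:52221800-52221829. The last is the 150 bp before the annotated 5′ end of Hoxa7 (chr6:52221855-52222004).
Hoxa4 upstream site: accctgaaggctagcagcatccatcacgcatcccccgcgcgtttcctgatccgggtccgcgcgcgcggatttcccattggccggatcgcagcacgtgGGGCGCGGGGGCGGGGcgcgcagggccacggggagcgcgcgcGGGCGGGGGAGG
Hoxc8 upstream site: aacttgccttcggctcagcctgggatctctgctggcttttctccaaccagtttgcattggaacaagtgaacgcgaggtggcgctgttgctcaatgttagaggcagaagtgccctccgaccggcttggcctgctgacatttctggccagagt
Hoxa7 start, CTCF match: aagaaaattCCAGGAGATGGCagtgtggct
Hoxa7 before the start: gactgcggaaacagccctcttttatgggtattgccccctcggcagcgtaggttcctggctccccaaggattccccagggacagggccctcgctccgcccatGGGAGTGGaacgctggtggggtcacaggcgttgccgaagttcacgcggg

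The Hoxa4 site was 75.5% G and C with 24 CpG in 151 bp, and its matches, which overlap, were all to the KLF letters. The Hoxc8 site was 55.6% G and C with 6 CpG, and none of the 9 motifs was in its window, which says only that these letters are not there. At Hoxa7 the CTCF match CCAGGAGATGGC covered bases 34 to 45 downstream of the annotated 5′ end. It lay 16 bp from the summit of replicate 1 and included that of replicate 2. Upstream of its start Hoxa7 had 1 match to the KLF letters, which were in 43.3% of windows of that size before all protein-coding genes.

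Over the 9 sites of any list, the E-box was in 5 summit windows, RUNX in 3, CTCF in 2 (Hoxa7 and Gm53), GATA in 1 (the Ttll6 intron), KLF in 1 (Hoxa4) and NFE2 in 1 (Gm53). ETS, HOX and MEIS had 0. None of the 9 was thresholded in a replicate, so the less strict lists are the nearer background. The sites at Hoxc5, in the Hoxb13 exon, between Hoxb13 and Hoxb9 and in the Ttll6 intron were in lists made from both replicates only. No share is given for those lists, so these sites have no like background. GATA1, the main erythroid factor, binds GATA letters, and these were in 27.0% and 27.1% of less strict summit windows in replicates 1 and 2. The other less strict shares were 36.1% and 36.2% for the E-box, 34.0% and 33.6% for KLF, 19.7% in both for CTCF, 11.2% and 11.5% for RUNX, 11.2% and 11.1% for MEIS, 9.30% and 9.44% for HOX, 9.04% and 8.82% for ETS, and 6.08% and 6.20% for NFE2. In the thresholded windows KLF and ETS letters were more frequent, at 41.5% and 41.1% and at 13.5% and 13.1%, and CTCF letters less so, at 16.2% and 16.8%. Such matches describe the sequence and do not show binding.

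No interval of either replicate's own lists lay within 50 kb outside any of the 8 cluster ends. The thresholded-free stretch holding each cluster was 627 and 564 kb long for Hoxa in replicates 1 and 2, 684 and 666 kb for Hoxb, 434 and 423 kb for Hoxc, and 1011 and 246 kb for Hoxd. The median stretch between thresholded intervals was 20.9 and 19.5 kb. Such long stretches were not rare: 5.09% and 5.15% of all stretches were longer than that of Hoxa, 4.74% and 4.53% than that of Hoxb, 6.91% and 6.66% than that of Hoxc, and 3.29% and 9.92% than that of Hoxd. Most stretches with many gene starts, whatever their length, were poor in CpG. Stretches with at least 10 protein-coding starts in replicate 1 (at least 9 in replicate 2, the fewest in a Hox stretch) numbered 182 and 211, the 4 Hox stretches included. The median of the starts' median CpG ratio was 0.173 and 0.182 over the others and ran from 0.450 to 0.724 and from 0.450 to 0.721 over the Hox stretches. By this ratio the Hoxd stretch ranked 3 in both replicates, Hoxa 6 and 8, Hoxc 8 and 7, and Hoxb 25 and 26, so other CpG-rich stretches of this kind exist.

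Promoters of neighbouring genes formed several of the edges. Beyond Hoxd13 the first thresholded interval was the promoter of Lnpk, an endoplasmic reticulum protein gene, 88.8 kb out in both replicates, with an enrichment of 11.8 and 12.5 (mean 12.2 ± 0.492, SD, n = 2). It was stronger than the median of 9.79 over the 9083 protein-coding genes open in both replicates. Beyond Hoxa13 the first interval in both thresholded lists was the promoter of Hibadh, a gene of valine breakdown, at 379 kb (11.9 ± 0.531), and replicate 2 had a weaker one in a Hibadh intron at 317 kb (6.19). Beyond Hoxb13 the shared one was the promoter of Atp5g1, an ATP synthase subunit, at 118 kb, with 10.97 in each replicate, and replicate 2 had an intergenic one at 101 kb (7.15). Evx1, next to Hoxa13, and Evx2, next to Hoxd13, are homeobox genes that pattern with the clusters, and their promoters had no interval in either list of either replicate. Besides Evx2, the protein-coding genes with a start in the windows were Gm28308, 5730596B20Rik and Gm28230, which had none either.

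The Hoxd1 side differed between the replicates. In replicate 2 the first thresholded interval was the promoter of Mtx2, a mitochondrial import gene, 60.5 kb out, with an enrichment of 8.66 and a −log10 p of 29.3. Replicate 1 had it in the less strict list, with 9.35 and 30.4, values no lower than in replicate 2. Its ranked score was 468 in replicate 1, under the lowest thresholded score of 540, and 846 in replicate 2. The first thresholded interval of replicate 1 was therefore intergenic at 825 kb, which sets the stretch of 1011 kb. With the less strict lists the Hoxd stretch was 246 kb in both replicates, so its length there rests on the call at 1 promoter.

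The remaining edges were intergenic. Beyond Hoxb1 the first interval in both thresholded lists lay 392 kb out near Snx11 (5.57 ± 0.0878), and less strict intervals came at 70.6 kb in both replicates, short of Skap1, a T cell adaptor gene whose promoter had none. Beyond Hoxc13 it lay 178 kb out, 20591 bp upstream of Calcoco1 (7.74 ± 0.129). Beyond Hoxc4 it lay at 140 kb (5.72 ± 0.779), and replicate 2 also had a promoter interval of Smug1, a DNA repair gene, at 129 kb (4.57). Among edges shared by both thresholded lists, the intergenic ones were weaker than the promoter edges named above. The means of those 3 promoter edges ran from 10.97 to 12.2 and the 4 intergenic means from 5.57 to 8.10. Promoter edges thresholded in replicate 2 only did not follow this, with 4.57 at Smug1 and 8.66 at Mtx2. The shared intergenic edges beyond Hoxc4 and Hoxd1 had 6.27 and 8.85 in that replicate.

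**Figure D4:**
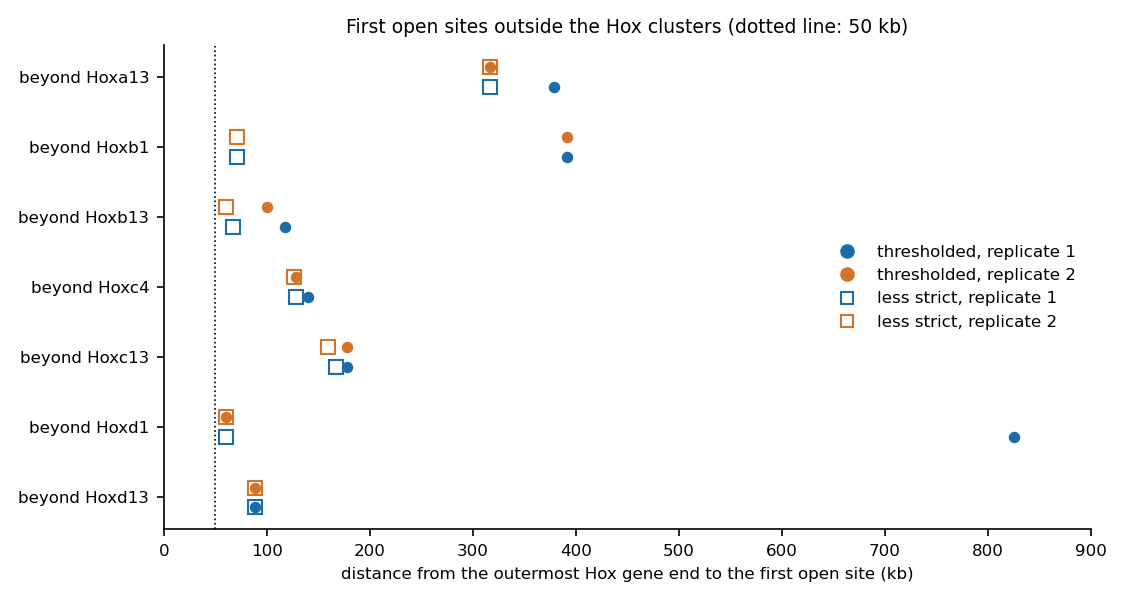
Distance in kb from 7 of the 8 cluster ends to the first interval outward, for the thresholded (filled circles) and less strict (open squares) lists of each replicate. All points lie beyond the dotted line at 50 kb, and the thresholded points beyond Hoxd1 stand apart, at 825 kb in replicate 1 and 60.5 kb in replicate 2.

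The 4 intergenic edges that both thresholded lists shared are shown because 3 of them hold the CTCF letters. Over all thresholded windows, those at promoters included, the shares were 16.2% and 16.8%. The share over intergenic windows alone was not computed, so these values are not a like background. Printed below are the 151 bp around the summit of replicate 1, from the same sequence and on the plus strand, with capitals as above: chr11:96760126-96760276, chr15:102742694-102742844, chr15:103177167-103177317 and chr2:75590309-75590459.
beyond Hoxb1: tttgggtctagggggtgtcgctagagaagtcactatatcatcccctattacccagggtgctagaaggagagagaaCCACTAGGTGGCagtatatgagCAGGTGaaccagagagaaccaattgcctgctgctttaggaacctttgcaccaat
beyond Hoxc13: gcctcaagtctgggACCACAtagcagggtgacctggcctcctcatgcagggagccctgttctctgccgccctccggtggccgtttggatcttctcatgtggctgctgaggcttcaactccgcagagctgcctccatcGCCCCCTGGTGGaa
beyond Hoxc4: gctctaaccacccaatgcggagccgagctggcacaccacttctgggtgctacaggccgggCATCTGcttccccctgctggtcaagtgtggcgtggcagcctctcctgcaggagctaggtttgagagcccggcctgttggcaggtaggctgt
beyond Hoxd1: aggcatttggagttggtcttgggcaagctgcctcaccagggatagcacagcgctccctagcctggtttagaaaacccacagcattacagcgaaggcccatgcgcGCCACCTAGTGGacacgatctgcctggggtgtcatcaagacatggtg

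The match was CCACTAGGTGGC beyond Hoxb1 and, on the minus strand, CCACTAGGTGGC beyond Hoxd1 and CCACCAGGGGGC beyond Hoxc13. The window beyond Hoxc4 had 1 E-box match and no CTCF match. With 4 windows this is a description, and binding was not measured. None of the 4 held GATA or KLF letters. Their CpG ratios, 0.112 to 0.409, were below those of the promoter edges beyond Hoxa13, Hoxb13 and Hoxd13, 0.583 to 0.886.

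Besides the Hox genes, 60 annotated genes had a start in the 4 windows, of which 4 were protein-coding, 7 were microRNA genes and 49 were of other kinds. Of the 56 that are not protein-coding, 0 had a thresholded interval within 1 kb of a start in either replicate, and 1, the long noncoding RNA gene Gm53, had a less strict one, in replicate 2. Over all annotated genes that are not protein-coding these shares were low too, 6.97% and 9.71%, and over all microRNA genes 8.36% and 10.8%, so such starts rarely had an interval anywhere in the genome, and the difference was not tested. Among those with none were the microRNA genes Mir10a, Mir10b, Mir196a-1, Mir196a-2, Mir196b and Mir615, several of which target Hox transcripts, and the long noncoding RNA genes Hotairm1, Hottip, Hotair and Haglr, which are known for acting on Hox clusters.

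In 3 lists of genes that act on Hox genes every promoter was open. All 11 genes of the PRC2 list, the Polycomb complex that methylates histone H3, were open in both replicates, led by Rbbp7 (enrichment 14.5 ± 0.765, SD, n = 2) and Mtf2 (14.3 ± 0.379). So were all 12 of the MLL and DOT1L list, the histone methyltransferases that sustain Hox transcription and their partners, led by Mllt3 (11.6 ± 0.455) and Wdr5 (11.5 ± 0.173). All 8 of the CTCF and cohesin list were open too, led by Rad21 (13.7 ± 0.545) and Smc3 (10.5 ± 0.385). The background was 41.4% of all protein-coding genes and 69.4% of those with a CpG ratio of at least 0.6. A CpG ratio of at least 0.6 was found for 9 of 11, 8 of 12 and 7 of 8 genes of these lists.

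Of the PRC1 list, the Polycomb complex that ubiquitinates histone H2A, 8 of 16 were open, among them Rnf2, its catalytic subunit (11.4 ± 0.589), and Pcgf1 (9.99 ± 0.146). That share was near the 41.4% of all protein-coding genes. A CpG ratio of at least 0.6 was found for 14 of 16, and 69.4% of all genes with that ratio were open. The subunits Bmi1, Pcgf2 and Cbx2 had no interval at the promoter in any list of either replicate, although their CpG ratios were 0.963 to 0.999. Cbx8 was thresholded in replicate 2 only (5.77, and 5.44 in the less strict list of replicate 1). Cbx6 and Phc1 had less strict intervals in both replicates, with 3.62 and 4.78 and with 4.84 and 5.08, and Ring1 in replicate 2 only (3.58).

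The partners of Hox proteins on DNA were mixed. Among those open were Pbx4 (10.8 ± 0.0633, SD, n = 2), Pknox1 (9.61 ± 0.194), Pbx3 (8.52 ± 0.597) and Pbx2 (5.89 ± 0.326). Meis1, Meis2, Meis3 and Pknox2 had no interval in either list of either replicate. This left 5 of 9 of these cofactors (55.6%) open, beside 41.4% of all protein-coding genes. Their CpG ratio was at least 0.6 in 5 of 9. Meis1 was also 1 of the stem and progenitor markers. Of 13 homeobox genes outside the clusters and related to them, among them Cdx1, Cdx2 and Cdx4, which act upstream of Hox genes in the embryo, and the neighbours Evx1 and Evx2, 0 were open and 0 had a less strict interval. Their CpG ratio was at least 0.6 in 9 of 13, so they too had CpG-rich promoters without an interval. None of these lists was tested.

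**Figure D5:**
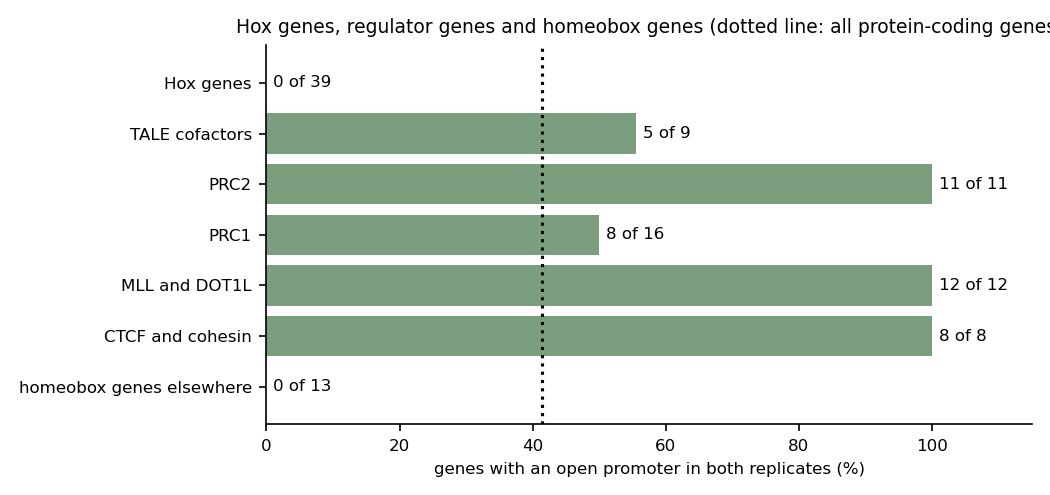
Share of genes in each list with an open promoter in both thresholded lists, with counts at the bars and the share of all protein-coding genes, 41.4%, as a dotted line. The Hox genes and the homeobox genes elsewhere are at 0, the PRC2, MLL and DOT1L, and CTCF and cohesin lists at 100%, and PRC1 and the TALE cofactors (Pbx, Meis and Pknox) in between.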

How the data were processed

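ATAC-seq was done on 2 replicates of mouse erythroblasts, and each replicate's lists of intervals were made from its own alignments in mm10, per the labels and listings of files. The aligner and the peak caller were not given in the sources used here. Replicate 2's label lists a pair of instrument models and replicate 1's none. The deposited score is a whole number of at most 1000, and in the ranked lists the authors also give −log10 of the irreproducible discovery rate as a score. The deposited enrichment is a fold over background. The deposited significance is −log10 p. Lists made from both replicates by the authors were used for description.

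An interval was a distinct start and end on the 19 autosomes, X or Y, with its strongest summit. Promoters, distances, windows, CpG and motifs were computed with Python 3.11.15, numpy 2.4.6 and pysam 0.24.0, figures with matplotlib 3.10.9, and the steps were tested on simulated data. Coordinates count from 1. The annotation was GENCODE M21 and the sequence RefSeq GRCm38.p6. Motifs were sought on both strands in 151 bp around the summit, or 150 bp before a gene start. Overlap was at least 1 bp. The mean ± SD over 2 replicates describes values of separate lists.

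Members, lists, markers and motifs were chosen with earlier results of these data known. All Hox genes were counted. Some items that this rule picks are not reported here. Hox genes with an interval were given with values, together with every protein-coding gene with a start in the windows, the members of each regulator list not open in both replicates and its 2 strongest. The windows held no thresholded interval, so sharing, motifs and printed site sequences rest on the less strict lists and on lists made from both replicates, a choice made after seeing the data. Gm53, the genes beyond the windows and the site near Hoxb4 were named after their values were seen. Alternatives were the other lists, promoter windows of other sizes, other start sites, flanks, overlap, summit windows and leaving out a replicate.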

Additional observations from a re-analysis of the deposited data

How the results depend on the processing

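Of 127 alternative values, 106 equalled the main value, 3 differed from it by less than 1.5 times and 18 by more or from 0. The 3 were the open PRC1 genes, 8 by the thresholded lists, with 11 by the less strict lists and 9 without replicate 1, and the RUNX letters, in 3 sites and in 4 with 100 bp on either side of the summit. For Hox genes open in both replicates, 0 by the thresholded lists, the less strict lists gave 1, and the thresholded, conservative and replicated lists made from both replicates gave 1, 1 and 3. For Hoxa these values were 1, 1, 1 and 2, for Hoxc the replicated list gave 1, and for the number of paralog groups with an open gene they were 1, 1, 1 and 3. Intervals in the 4 windows, as the mean of both replicates, rose from 0 to 3.5 with the less strict lists and to 2.5 with flanks of 100 kb, and those inside the Hox gene spans to 3.5 with the less strict lists. Of the 9 sites, the E-box was in 3 with 50 bp on either side of the summit, and KLF in 4 with 100 bp. Leaving out either replicate gave 0 for all Hox counts of the thresholded lists. The share of thresholded intervals found in both replicates could not be given, since the windows held none. The lists made from both replicates were added after seeing the data. No paired analysis was possible because there is 1 group. Depth is unknown, and an interval missing from a list may lie under that list's threshold.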

Other observations

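In the 150 bp before the annotated 5′ ends, the HOX letters were found at 10 of 39 Hox genes (25.6%) and at 13.4% of all protein-coding genes, and the ETS letters at 0 of 39 and 10.8%. The E-box was at 6 of 39 (15.4%) and 28.5%, KLF at 13 of 39 (33.3%) and 43.3%, GATA at 5 of 39 (12.8%) and 14.3%, and CTCF at 1 of 39, Hoxb5, and 5.45%. These shares were not tested, and paralogs share sequence, so the genes are not independent.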
